A study of Homo sapiens with 2 samples.

Results

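The 47 genes described here encode proteins of DNA replication and of the passage from G1 into S phase, and were taken by symbol from a fixed list. All 47 were found among the 57736 genes of the deposited table. They were read in A549 cells, a lung adenocarcinoma line, by targeted sequencing with the AmpliSeq Transcriptome kit from 10 ng of total RNA per library. There was 1 library of cells labelled as a TGF-beta-induced model of epithelial to mesenchymal transition (EMT) and 1 library of cells labelled as given no treatment. Both are labelled wild type, the series describes the line as carrying a VIM RFP reporter, and the sources used here do not state the dose or duration of TGF-beta. With 1 library per group no difference has a replicate check, no test of the treatment can be made and no p-value is given.

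Before a cell copies its genome, the loaders CDC6 and CDT1 place the ring of MCM2 to MCM7 on replication origins. CDC45 and the GINS proteins then turn that ring into an active helicase, and polymerases held by the sliding clamp PCNA copy the strands. Transcription of many of these genes is driven by E2F factors when cyclin-dependent kinases inactivate the retinoblastoma protein. TGF-beta is known as an inhibitor of this G1 to S passage in many epithelial cells.

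The libraries held 595124 (labelled TGF-beta) and 673135 (untreated) expected counts, which are estimated counts that need not be whole. Levels are given as CPM, counts rounded to whole numbers and put on a common library size with TMM factors, which centre the bulk of gene ratios. The library labelled TGF-beta was unlike the untreated one in ways that bear on every value below. Vimentin (VIM) had 56 counts there against 452, TGFBI, a TGF-beta target gene, 15 against 407, and the glycolytic gene GAPDH 115 against 2764. Among 75 ribosomal protein genes the median log2 ratio of the library labelled TGF-beta over the untreated one was -3.19. The 10 fullest genes held 43.7% of the counts labelled TGF-beta and 32.7% of the untreated counts. The 12 markers expected of the line summed to 2044 CPM in the library labelled TGF-beta and 2130 in the untreated one, most of it ALDH3A1 (1025 and 994 counts). Of the 11 with a ratio 6 were at least 2-fold lower, KRT7 (32 against 179) and NQO1 (5 against 71) among them, and 3 were higher. Their median was -1.39 on the log2 scale. KRT18 had 0 against 3. The 8 fibroblast markers summed to 414 and 267 counts, most of them COL1A1 (356 against 196). PDGFRB had 48 against 52, THY1 4 against 10, COL1A2 2 against 4, COL3A1 0 against 2 and DCN 1 against 2. PDGFRA had 3 against 1 and LUM 0 in both. The 8 leukocyte markers summed to 15 and 19 counts, with 1 and 4 of them at 0. The part of these library-wide differences in the replication genes was not tested.

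Summed, the replication genes differed little between the libraries, and single members lay far apart in both directions. All 47 together had 342 counts in the library labelled TGF-beta and 449 in the untreated library, or 605 and 630 CPM. That is 0.0573% (exact 95% binomial interval 0.0514% to 0.0637%) and 0.0665% (0.0605% to 0.0730%) of the rounded counts. Without the 11 fullest genes of either library the shares were 0.104% and 0.101%, in the reverse order. The log2 ratio of the sums was -0.06 (95% counting interval -0.26 to 0.15). Whether it left equality depended on the scaling: it was -0.28 (-0.48 to -0.07) with DESeq2 size factors, -0.22 (-0.42 to -0.01) with total counts and 0.02 (-0.18 to 0.23) with the upper quartile. The sums rested in part on TYMS (62 counts labelled TGF-beta against 13 untreated) and GINS3 (58 against 14). The TYMS counts cannot be assigned to TYMS with certainty, as given below, and the sums were not computed without them. Because PCR copies carry no molecular identifiers and are not independent, all intervals cover counting error only. In bulk RNA a smaller share of cells in S phase and less of these mRNAs per cell cannot be told apart.

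Depth limited the single genes. Only 10 members had at least 10 counts in the library labelled TGF-beta and 15 in the untreated library, and 16 and 7 members had 0 after rounding. A ratio was formed for genes with at least 5 CPM in 1 library and more than 3 counts in 1 library. It was formed for 24 members, and the other 23 gave none. A count of 0 in a ratio was set to a floor of 3 counts, which equals 5.31 CPM in the library labelled TGF-beta and 4.21 CPM in the untreated library.

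**Figure D1:**
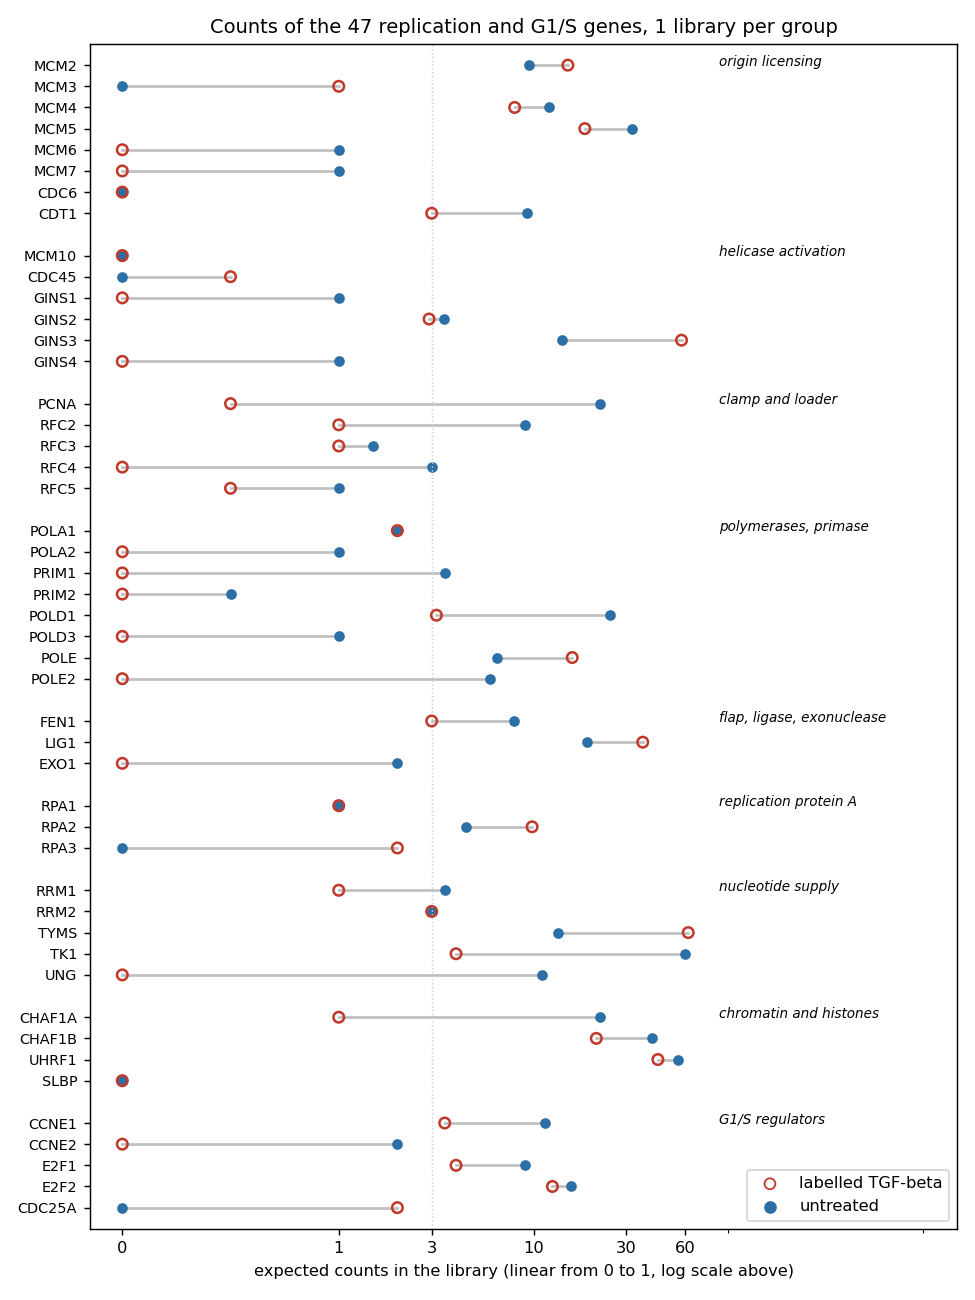
Expected counts of each of the 47 genes (horizontal axis, linear from 0 to 1 and logarithmic above) in the library labelled TGF-beta (open red circles) and the untreated library (filled blue circles), ordered by role. A grey line joins the 2 values of a gene and the dotted line marks 3 counts. TK1, PCNA and CHAF1A lie far to the left in the library labelled TGF-beta, GINS3 and TYMS far to the right, and many genes lie at 3 counts or fewer in both.

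Of the 24 members with a ratio, 10 were at least 2-fold lower in the library labelled TGF-beta, or 41.7%, where 29.2% of all 14067 genes with a ratio were. At least 2-fold higher were 5 members, or 20.8%, against 21.3% of all genes. Their median log2 ratio was -0.65 (quartiles -1.57 and 0.26) and that of all genes was -0.08 (-1.25 and 0.75). The counting interval of the ratio lay wholly below equality for 5 members (20.8%) and for 18.4% of all genes, and wholly above it for 4 members (16.7%) and 10.9% of all genes. These shares lie near those of all genes and are not a result about replication. At 20 CPM or more in 1 library, where 13 members had a ratio, 4 were at least 2-fold lower (36.0% of all genes at that level) and 4 higher (18.5%), and the median was -0.02 (-0.16 over all genes). The lower members were mostly thinly read. Among those with 10 to 29 counts over both libraries 8 of 14 were lower (31.8% of all genes of that depth) and 2 higher (19.5%). Among those with 30 or more 1 of 7 was lower (32.0% of all genes of that depth) and 3 were higher (13.6%).

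**Figure D2:**
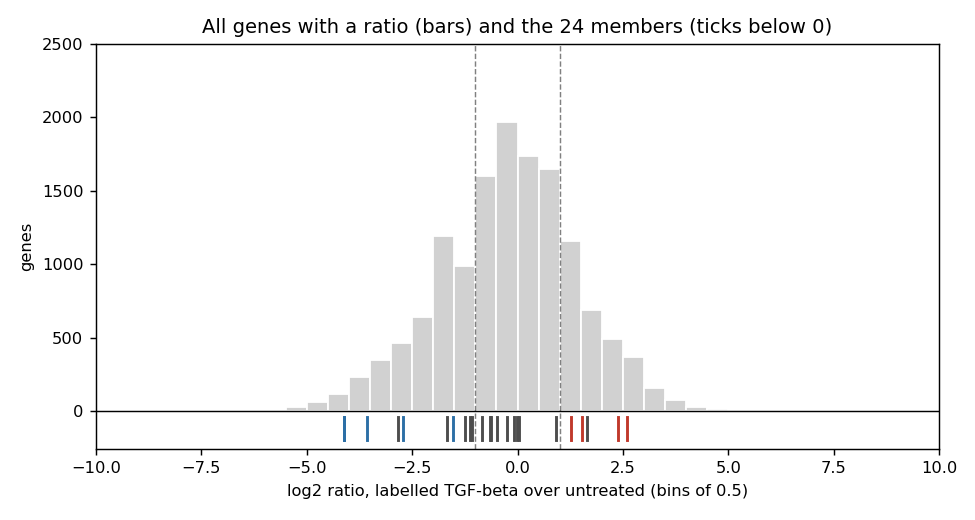
Number of genes (vertical axis) in bins of the log2 ratio of the library labelled TGF-beta over the untreated library (horizontal axis), for all 14067 genes with a ratio, and the ratios of the 24 members as ticks under the axis. Blue ticks are the 5 members whose counting interval lies wholly below 0, red ticks the 4 wholly above, grey ticks the rest, and dashed lines mark a 2-fold difference. The ticks spread over most of the width of the bars.

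Where along a gene its counts lay differed between the libraries. The positions that the kit targets were not used here, so counts inside and outside a gene's target were not told apart. This holds for all levels and ratios in this report. The untreated counts of the 5 members whose intervals lay below equality sat mostly on 2 neighbouring exons of a transcript. The library labelled TGF-beta had 0 to 0.5 counts on those same exons. The following stretches of 60 bases from GENCODE release 29 transcripts (GRCh38) show, 5′ to 3′, where these pairs of coding exons meet, because the untreated signal of these genes sits there. Lower case is the end of the 5′ exon and capitals are the start of the 3′ exon.
TK1: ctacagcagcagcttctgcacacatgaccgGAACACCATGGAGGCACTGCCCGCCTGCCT
PCNA: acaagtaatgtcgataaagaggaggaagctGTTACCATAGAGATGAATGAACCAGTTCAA
CHAF1A: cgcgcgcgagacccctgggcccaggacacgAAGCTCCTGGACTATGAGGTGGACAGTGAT
POLD1: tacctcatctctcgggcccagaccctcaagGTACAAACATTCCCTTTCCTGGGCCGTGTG
UNG: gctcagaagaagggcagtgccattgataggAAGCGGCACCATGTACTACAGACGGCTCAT

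On hg19 the pairs are 17:76181136-76181246 with 76178670-76178763 for TK1, 20:5098116-5098310 with 5096095-5096218 for PCNA and 19:4429435-4429603 with 4429705-4429785 for CHAF1A. They are 19:50906750-50906854 with 50909439-50909579 for POLD1 and 12:109541238-109541416 with 109547634-109548797 for UNG. In TK1 the pair held 58.1 of the untreated library's exon counts (96.7%) and 0 of those labelled TGF-beta. In PCNA it held all 22.0 against 0.5, in CHAF1A 23.7 (92.2%) against 0, in POLD1 18.5 (66.3%) against 0, and in UNG 11.0 of 11.0 against 0. The pair of each gene was chosen on the untreated counts, so its higher value there is a description. Exon entries need not add up to the gene's entry, as in CHAF1A (25.7 untreated over its exons and 22.0 for the gene), and they do not show whether single reads crossed a junction.

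The same search was then made in each library by itself, each time choosing the pairs on that library's own counts. A higher value of a pair in the library it was chosen in is therefore again a description. The search was made for the members only, so no share over all genes stands beside it. Among the 15 members with at least 10 untreated counts, 11 had 2 neighbouring exons of a transcript with at least 1 count each, and these pairs held 168.9 untreated counts against 6.0 in the library labelled TGF-beta. Among the 10 members with at least 10 counts in the library labelled TGF-beta, 1 had such a pair. That gene was UHRF1, where nearly all of the pair's counts were on 1 of the exons. Its pair held 42.0 counts labelled TGF-beta against 55.0 untreated counts. The search used exons of single transcripts, before overlapping exons were merged, and its outcome depends on that choice. With overlapping exons merged, LIG1 had 15.0 and 2.0 counts labelled TGF-beta on its neighbouring exons 30 and 29. POLE then had 1.5 and 1.0 on its exons 31 and 30. At least 90% of a member's counts lay in 1 exon in 6 of these 10 members (MCM2, GINS3, TYMS, CHAF1B, UHRF1 and E2F2) and in 4 of the 15 in the untreated library (GINS3, CHAF1B, UHRF1 and E2F2). Over all genes of more than 1 exon this share was 39.9% of 3751 genes in the library labelled TGF-beta and 27.4% of 5511 in the untreated library.

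The split also went with the ratios. Members with at least 10 untreated counts, at least 90% of them in 1 exon, numbered 4. None of them was lower and 1 was higher, and their median log2 ratio was 0.01. Those with under 90% of their untreated counts in 1 exon numbered 11, some of them with nearly all counts on 2 neighbouring exons. Of these 6 were lower and 2 higher, and their median was -1.12. Over all genes of the same kinds, 27.7% of 1508 genes with at least 90% in 1 exon were lower and 7.29% higher (median -0.12). Of 3941 genes with under 90% in 1 exon, 50.1% were lower and 5.66% higher (median -1.01). Requiring 10 untreated counts favours lower ratios in both kinds. The medians of the members in both kinds lay near those of all genes, and the part of exon use in the single ratios below was not tested.

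**Figure D3:**
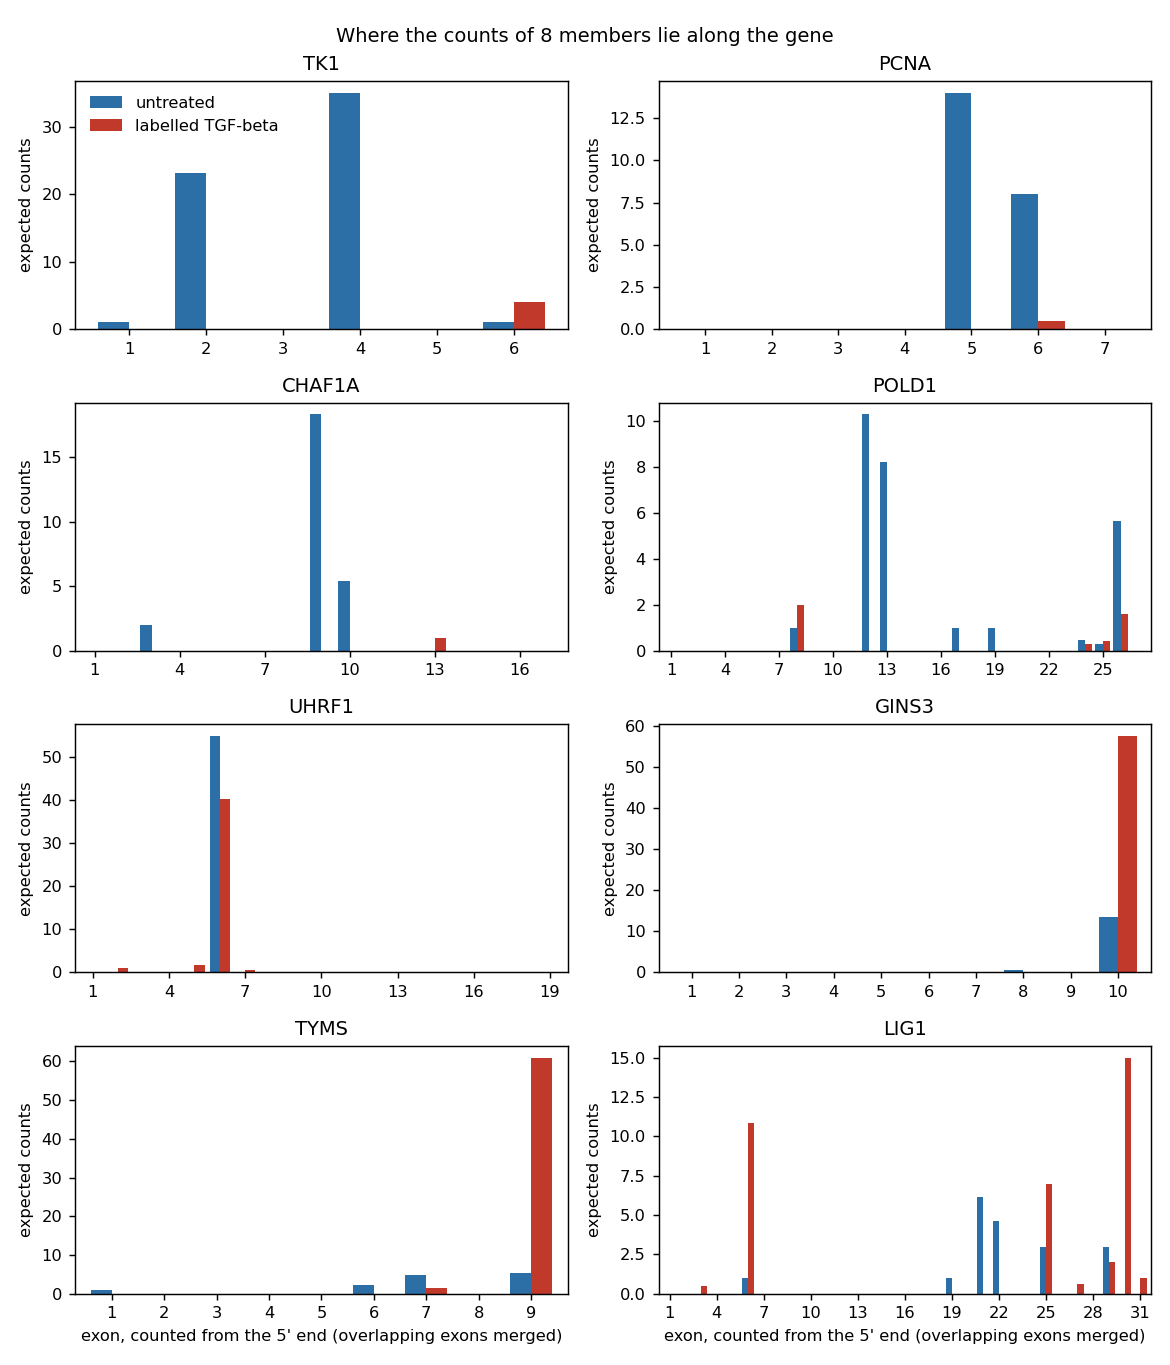
Expected counts (vertical axis, own scale per panel) on each exon, numbered from the 5′ end with overlapping exons merged (horizontal axis), for 8 members in the untreated library (blue) and the library labelled TGF-beta (red). The untreated counts of TK1, PCNA, CHAF1A and POLD1 stand on a few inner exons that are empty or nearly so in red. UHRF1 and GINS3 have 1 full exon in both libraries, and TYMS and LIG1 have their fullest red bars on exons where the blue bars are low.

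The sliding clamp and its loader had the lowest ratio of sums of any role, with 4 counts against 37 (7.08 and 51.9 CPM) and a log2 ratio of -2.87 (-4.82 to -1.40). PCNA (ENSG00000132646, hg19 chromosome 20, 5095599 to 5107272, minus strand) is the ring that tethers polymerases to DNA. It had an expected count of 0.5 in the library labelled TGF-beta, rounded to 1, and 22 in the untreated library, or 1.77 and 30.9 CPM. The log2 ratio was -4.12 (-9.49 to -1.49), and it was -2.54 when the 0.5 was rounded to 0 and set to the floor. Among the subunits of replication factor C, which loads the clamp, RFC2 had 1 count against 9 with an interval that reached equality (-8.29 to 0.02), though not with DESeq2 size factors or total counts (upper bounds -0.20 and -0.14). RFC3 had 1 against 2, RFC4 0 against 3 and RFC5 1 against 1, so that PCNA carried most of the difference of this role.

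Enzymes of nucleotide supply and the glycosylase gene UNG, grouped with them here, summed to 70 counts against 91. The log2 ratio was -0.04 (-0.51 to 0.42), with single members on both sides of equality. Most of the 70 counts were those of TYMS (62 against 13), which cannot be assigned with certainty, as given below. TK1 (ENSG00000167900, chromosome 17, 76170160 to 76183314, minus strand), the thymidine kinase of the salvage pathway, had 4 counts against 60 (7.08 and 84.1 CPM), which is 11.9-fold lower with a log2 ratio of -3.57 (-5.49 to -2.14). Its 4 counts labelled TGF-beta lay in the terminal exon, where the untreated library had 1. TYMS (ENSG00000176890, chromosome 18, 657604 to 673578, plus strand), the thymidylate synthase of the de novo pathway, went the other way with 62 counts against 13 (110 and 18.2 CPM) and a log2 ratio of 2.59 (1.71 to 3.58).

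The TYMS value cannot be assigned to TYMS with certainty. Of its counts labelled TGF-beta, 61.0 (97.6%) lay in the terminal exon, against 5.24 in the untreated library. ENOSF1 overlaps that exon on the opposite strand, and in the same place it was given 62.5 counts labelled TGF-beta and 11.2 untreated counts. No source used here says that counting used strand, so the reads of the 2 genes cannot be told apart. The seventh exon, which ENOSF1 also overlaps, had 1.5 counts labelled TGF-beta and 4.88 untreated. The first and sixth had 1.0 and 2.22 untreated counts and none labelled TGF-beta. Without TYMS, 4 members were at least 2-fold higher, and 3 had an interval wholly above equality.

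UNG (ENSG00000076248, chromosome 12), the glycosylase that removes uracil from DNA, had 0 counts against 11 (0 and 15.4 CPM). With the 0 at the floor of 3 counts this is at least 2.91-fold lower for the untreated count as read. With the counting error of both libraries the upper bound of the log2 ratio was -0.99, a smaller difference. The subunits of ribonucleotide reductase, which makes deoxyribonucleotides, were too sparse: RRM1 had 1 count against 4 and RRM2 had 3 against 3.

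Polymerases and primase summed to 21 counts against 47, a log2 ratio of -0.83 (-1.64 to -0.06, and to 0.02 with the upper quartile as scaling). The catalytic subunits of polymerases delta and epsilon had ratios on opposite sides of equality. POLD1 (ENSG00000062822, chromosome 19, 50887461 to 50921273, plus strand), the catalytic subunit of lagging-strand polymerase delta, had 3 counts against 25 (5.31 and 35.1 CPM) and a log2 ratio of -2.72 (-5.10 to -1.01). POLE (ENSG00000177084, chromosome 12, 133200348 to 133263951, minus strand), the catalytic subunit of leading-strand polymerase epsilon, had 16 against 7 (28.3 and 9.82 CPM) and a log2 ratio of 1.53 (0.17 to 3.05). With DESeq2 size factors the POLE interval included equality (-0.05 to 2.83). The POLE counts labelled TGF-beta were spread over 7 exons with at least 0.5 counts each, the terminal exon holding 36.9% of them. The accessory subunit POLE2 had 0 against 6 and the primase subunit PRIM1 0 against 4, and both intervals crossed equality, that of POLE2 not with DESeq2 size factors or total counts (upper bounds -0.12 and -0.06). PRIM2, POLA2 and POLD3 had 0 against 1, and POLA1, which starts each new strand with primase, had 2 in both libraries.

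**Figure D4:**
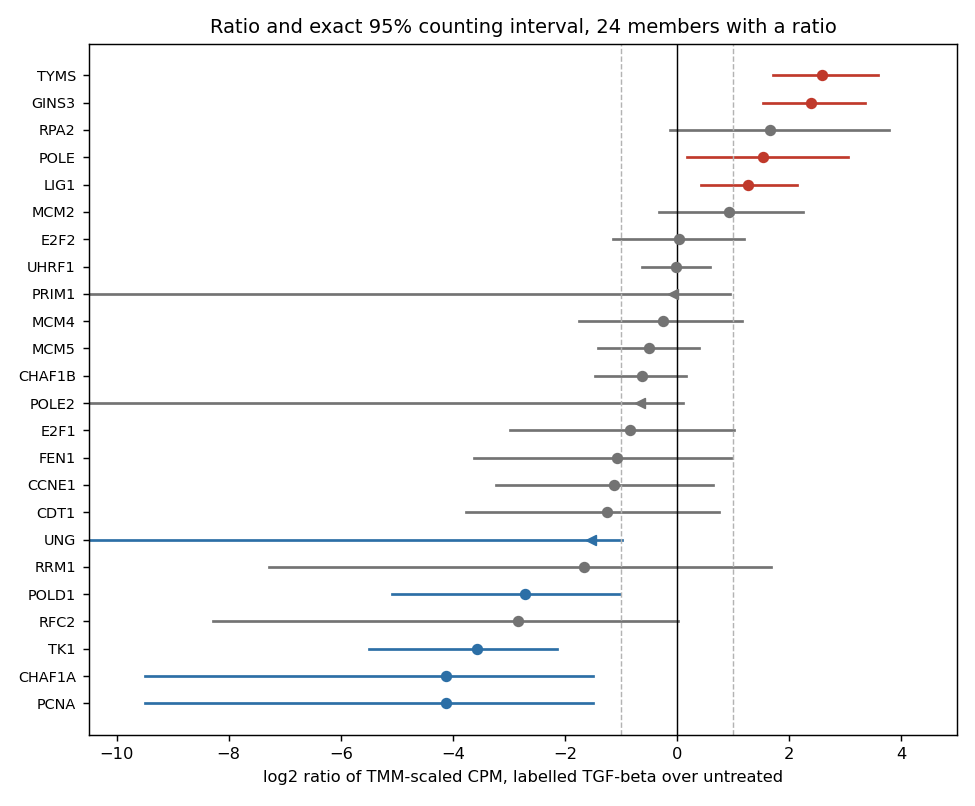
Log2 ratio of scaled CPM, the library labelled TGF-beta over the untreated library (horizontal axis), with its exact 95% counting interval (lines) for the 24 members with a ratio. Triangles are ratios in which a count of 0 was set to the floor of 3, whose intervals run off the axis. Blue marks the 5 intervals wholly below 0, red the 4 wholly above (TYMS, GINS3, POLE and LIG1), grey those that include 0, and dashed lines a 2-fold difference.

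The flap endonuclease, ligase and exonuclease genes summed to 39 counts against 29, a log2 ratio of 0.76 (0.03 to 1.51). With DESeq2 size factors or total counts the interval of this sum included equality (lower bounds -0.19 and -0.13). Of the enzymes that finish the lagging strand, LIG1 (ENSG00000105486, chromosome 19, 48618702 to 48673860, minus strand), the ligase that seals Okazaki fragments, was the fuller. It had 36 counts against 19 (63.7 and 26.6 CPM) and a log2 ratio of 1.26 (0.42 to 2.14). The libraries used different exons: 15.0 counts labelled TGF-beta lay in the second exon from the 3′ end and 10.8 in the sixth, where the untreated library had 0 and 1.0. The exons numbered 21 and 22 from the 5′ end had 6.14 and 4.64 untreated counts and none in the other library. FEN1, the flap endonuclease, had 3 against 8 (-3.63 to 0.98), and its first exon overlaps exons of FADS2 and TMEM258. EXO1, an exonuclease of mismatch repair, had 0 against 2.

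Helicase activation factors summed to 62 counts against 19, a log2 ratio of 2.04 (1.28 to 2.87), and this difference rested on 1 gene. GINS3 (ENSG00000181938, chromosome 16, 58328984 to 58440048, plus strand), a subunit of the GINS tetramer, had 58 counts against 14 (103 and 19.6 CPM), which is 5.23-fold higher with a log2 ratio of 2.39 (1.53 to 3.34). All of its counts labelled TGF-beta and 96.4% of the untreated ones lay in the terminal exon. Its partners were at or near 0, with GINS1 and GINS4 at 0 against 1 and GINS2 at 3 against 3. CDC45, which binds MCM and GINS in the active helicase, had 1 against 0 after rounding, and the activation factor MCM10 had 0 in both.

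The MCM helicase and its loaders were close in sum, with 45 counts against 65 and a log2 ratio of -0.20 (-0.78 to 0.38). MCM5 (chromosome 22) had 18 counts against 32 (31.9 and 44.9 CPM, log2 ratio -0.49, -1.41 to 0.38), MCM2 (chromosome 3) 15 against 10 (26.5 and 14.0 CPM, 0.92, -0.33 to 2.24) and MCM4 8 against 12 (14.2 and 16.8 CPM, -0.25, -1.74 to 1.16). None of these 3 differed beyond counting error. The other subunits of the same ring were barely read: MCM3 had 1 count against 0, and MCM6 and MCM7 had 0 against 1. MCM2 again differed in position, with 14.0 of its counts labelled TGF-beta in 1 exon and its untreated counts on 7 exons. The loader CDT1 had 3 against 9 (5.31 and 12.6 CPM, log2 ratio -1.25, -3.77 to 0.75), and the loader CDC6 had 0 in both.

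The chromatin and histone genes summed to 65 counts against 118, a log2 ratio of -0.525 (-0.984 to -0.076, and to 0.004 with the upper quartile as scaling). Among the genes of chromatin assembly were subunits of chromatin assembly factor 1, which places histones on new DNA. Their counting intervals did not overlap, but only narrowly (upper bound -1.495 for CHAF1A, lower bound -1.462 for CHAF1B). These intervals cover counting error only, and the subunits of the factor were not tested against each other. CHAF1A (ENSG00000167670, chromosome 19, 4402659 to 4445015, plus strand), its large subunit, had 1 count against 22 (1.77 and 30.9 CPM), a log2 ratio of -4.12 (-9.49 to -1.49). CHAF1B (ENSG00000159259, chromosome 21, 37757676 to 37791313, plus strand) had 21 against 41 (37.2 and 57.5 CPM), a log2 ratio of -0.63 (-1.46 to 0.16, and -1.68 to -0.06 with DESeq2 size factors). The CHAF1B counts lay almost wholly in the terminal exon in both libraries. An exon of CHAF1A that held 5.43 untreated counts overlaps an unnamed gene on the opposite strand with 4.0 counts labelled TGF-beta and 3.7 untreated counts there. UHRF1 (ENSG00000034063, chromosome 19, 4903092 to 4962165, plus strand), which guides the copying of DNA methylation, had 43 against 55 (76.1 and 77.1 CPM). Its log2 ratio of -0.02 had the narrowest interval of the 24 members with a ratio (-0.63 to 0.58). Of the UHRF1 counts, 92.7% of those labelled TGF-beta and all untreated ones lay in the exon at 4930728 to 4930888. SLBP, which binds histone mRNA, had 0 in both libraries.

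The regulators of the G1 to S passage did not differ beyond counting error, with 23 counts against 38 in sum (log2 ratio -0.39, -1.20 to 0.40). The activating transcription factor E2F2 had 13 counts against 16 (23.0 and 22.4 CPM, log2 ratio 0.04, -1.14 to 1.19), nearly all in its terminal exon. E2F1 had 4 against 9 (-0.83, -2.99 to 1.01) and CCNE1, which encodes cyclin E, 4 against 11 (7.08 and 15.4 CPM, -1.12, -3.23 to 0.63). CCNE2 had 0 against 2 and the phosphatase gene CDC25A 2 against 0. For the single-strand binding protein RPA, the subunit RPA2 had 10 against 4 (17.7 and 5.61 CPM, log2 ratio 1.66, -0.14 to 3.79), RPA1 had 1 in both and RPA3 had 2 against 0. The RPA genes summed to 13 counts against 5, a log2 ratio of 1.714 (0.135 to 3.555). With DESeq2 size factors or total counts the interval of this sum included equality (lower bounds -0.085 and -0.025).

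A further 64 genes of replication and G1/S control summed to 873 counts against 1843, a log2 ratio of -0.74 (-0.86 to -0.62). CDC7, which encodes a kinase that fires origins and is named here after its values were seen, held 552 and 1155 of these counts. In CDC7, 99% of the counts labelled TGF-beta and 98% of the untreated ones lay in 1 exon. A ratio was formed for 40 of the 64, and its median was -0.66. Differences of 2-fold or more went downwards in 16 of the 40 (29.2% of all genes) and upwards in 3 (21.3% of all genes). The 2 lists were not tested against each other. Among those with at least 10 counts in 1 library the lowest were accessory subunits and a histone chaperone. POLE4 of polymerase epsilon had 1 count against 33 (log2 ratio -4.71, -10.06 to -2.13), and SSRP1 of the FACT chaperone had 2 against 56 (-4.47, -7.55 to -2.55). POLE3 had 1 against 20 (-3.99, -9.36 to -1.34), and POLD2 of polymerase delta had 2 against 35 (-3.79, -6.89 to -1.83). The highest were CHTF18 of an alternative clamp loader, with 13 against 9 (0.87, -0.47 to 2.27), and DTL, which directs CDT1 to degradation, with 136 against 97 (0.82, 0.44 to 1.21). In DTL, 98% of the counts labelled TGF-beta and 100% of the untreated ones lay in 1 exon. TICRR had 12 in both libraries (0.34, -0.95 to 1.62) and ORC4 11 against 15 (-0.11, -1.38 to 1.11). The G1 genes CCND1 and CDK4, which encode cyclin D1 and its kinase, were chosen after their values were seen. CCND1 had 8 against 81 (14.2 and 114 CPM, 8.02-fold lower) and CDK4 4 against 35 (7.08 and 49.1 CPM, 6.93-fold lower). Other G1 genes of the list did not all go with them. CDK2 was lower (1 against 15). CCND3 (12 against 22), CDK6 (2 against 4) and RB1 (3 against 5) were less than 2-fold lower, with intervals that included equality. CCND2 had 2 in both libraries. E2F factors, their partners and relatives of RB1 are also given after their values were seen. TFDP1 (4 against 39), E2F5 (0 against 9) and E2F4 (2 against 8) were at least 2-fold lower, the interval of E2F4 including equality. TFDP2 (3 against 5), E2F6 (3 against 4) and RBL2 (3 against 7) were less than 2-fold lower, with intervals that included equality. E2F3, E2F7, E2F8 and RBL1 were too sparse for a ratio. Markers of cells in cycle were too sparse to compare, with MKI67 at 2 counts in both libraries, TOP2A at 4 against 1, CDK1 at 0 against 3 and CCNB1 at 0 in both after rounding.

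The promoters of many of these genes, though not of all, hold a sequence feature that was not a rule of the list. Many of the genes are known to be driven by E2F factors, as given above, so the feature is not independent of their choice. RefSeq promoter windows of 300 bases (GRCh38, 250 before to 50 after the start) were matched for 40 of the 47 genes. An E2F word (TTTCCCGC, TTTCGCGC, TTTGCCGC or TTTGGCGC, on either strand) occurred in 22 of the 40 (55.0%), in 3.33% of 27305 promoters and in 4.35% of the 8722 promoters of genes with a ratio. It occurred in 2 of 10 members at least 2-fold lower, in 9 of 11 other members with a ratio and in 11 of 19 without one. The CCAAT word was in 52.5% of members and 35.7% of promoters, and the GC box GGGCGG, to which SP1 binds, in 30 of the 40 members and 44.6% of promoters (66.0% of those of genes with a ratio). A GC box can share letters with an E2F word. A word is a match of letters, which says nothing about binding in these cells.

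Windows of 100 bases upstream of the start are shown for the 2 lower members with an E2F word, PCNA (chr20:5126634-5126733, minus strand) and CDT1 (chr16:88803689-88803788, plus strand). E2F1 (chr20:33686386-33686485, minus strand), the factor's own gene, has 2 words. Capitals mark the E2F words, read 5′ to 3′ on the gene's strand.
PCNA: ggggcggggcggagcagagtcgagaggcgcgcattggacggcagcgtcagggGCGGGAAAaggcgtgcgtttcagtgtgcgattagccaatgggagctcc
CDT1: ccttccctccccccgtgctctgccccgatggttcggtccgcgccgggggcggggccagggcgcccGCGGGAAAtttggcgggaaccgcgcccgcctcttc
E2F1: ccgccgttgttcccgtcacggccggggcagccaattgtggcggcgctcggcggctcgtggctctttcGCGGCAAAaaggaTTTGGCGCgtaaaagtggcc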

How the data were processed

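RNA of 1 library per group was read with the AmpliSeq Transcriptome kit, per the labels' protocols. The authors' deposited table holds expected counts (estimated counts) for 57736 genes, not normalized, with hg19 coordinates and entries for exons, which need not add up to the gene's count. The build hg19 and the tool DESeq are named, with no role, per the submitters' processing notes. The sources used here do not state the aligner, the counter or whether strand was used. Counts were rounded (0.5 upwards) and scaled by TMM in edgeR 4.0.16 (factors 0.946 for the library labelled TGF-beta and 1.06 for the untreated one, on 597133 and 674784 counts). Intervals of ratios are exact (Clopper-Pearson, given the 2 libraries' summed count) and cover counting error only, and the code was tested on simulated data. The members and lists were chosen with earlier results of these data known. All 47 members are named. Of the other replication genes, up to 4 with the largest and 4 with the smallest ratio at 10 counts or more are named. Of 2 deposited genes with the symbol RBL1, the one that the reference pairs with it was used. Alternatives covered scaling (DESeq2 1.42.0 size factors, total counts, upper quartile), filters, the floor, rounding and exon use.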

Additional observations from a re-analysis of the deposited data

How the results depend on the processing

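Of 229 ratios of single members under the alternatives, 99 differed from the main value (scaling, pseudocount, rounding), all within their counting intervals. Filters and exon use leave a ratio as it is. With DESeq2 size factors 8 intervals lay wholly below equality in place of 5 and 3 above in place of 4 (POLE was lost), and with total counts 7 lay below. The share of all genes with such intervals was not counted under these scalings, so these counts are not a result about replication. At least 2-fold lower were 11 of 24 members with DESeq2 size factors (33.8% of all genes) and 10 with total counts (33.0% of all genes). The log2 ratio of the summed counts was -0.276 with DESeq2 size factors, -0.216 with total counts and 0.022 with the upper quartile. The members' median log2 ratio was -0.87 with DESeq2 size factors, -0.81 with total counts, -0.85 with log2(CPM + 1) and -0.019 at 20 CPM. The median of all genes moved from -0.08 to -0.30 with DESeq2 size factors and -0.24 with total counts. At 1 CPM, or with 1 count in 1 library, the members' median was 0.008 over 44 members, and 12 were at least 2-fold higher (25.3% of all genes) and 12 lower (27.2%). Of the other replication genes 27 were then lower and 4 higher. Ratios at that filter rest on 1 to 3 counts, and a 0 against 1 is held at 3 against 1, which turns its direction. At 20 CPM 4 of 13 members were lower, and 9 of 15 other replication genes were lower and 0 higher (36.0% and 18.5% of all genes). More than 3 counts in 1 library leaves the same genes as the main filter. Without the 11 genes among the 10 fullest of either library, the members held 0.104% and 0.101% of the counts labelled TGF-beta and untreated. Leaving out TYMS, keeping ratios at the floor, rounding 0.5 to the even number and scaling the sums in other ways were chosen after seeing the data. No library could be left out with 1 per group. No paired analysis was possible because each group has 1 library.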
